A study of Mus musculus with 52 samples.

Results

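Mouse genes whose symbols end in Rik carry provisional names. Symbols of this kind were given to transcripts found in the RIKEN full-length complementary DNA collection, and a gene keeps its Rik symbol until a function or a relative gives it another name. The group therefore mixes proteins of little known function, long noncoding RNAs, antisense transcripts and a few pseudogenes, and it is often passed over when stages of early development are described by their well-known markers. Its members were chosen here by how far their level differed between 4 stages of a stem cell based embryo model. Of 2965 Rik symbols among 55291 in the table, 206 had a mean of at least 5 CPM (counts per 1e6 counts of the library) in at least 1 of 4 groups: S1 cells of passage 38 and full-medium aggregates at stages S2, S3 and S5. The 206 were ranked by the highest of the 4 group means plus 0.5 over the lowest plus 0.5, and the 150 with the largest ratio were followed over all 52 libraries. By this ratio 42 members peaked at passage 38, 21 at S2, 57 at S3 and 30 at S5.

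The series holds poly(A) RNA sequencing of wild-type mouse cells in 26 groups of 2 libraries each. Extended pluripotent stem cells (EPSCs) of the line mc6-1/Mu-mClover3-10# were kept in LCDM medium (libraries 1 and 2, and libraries 3 and 4), and embryonic stem cells (mESCs) of the line 2i-0606-td-ES in 2i/L medium. EPSCs were put for 2 days in a totipotency medium (2-day S1 cells) or kept in it for 25 or 38 passages, and mESCs were put in it for 2 days. Further EPSCs received CHIR-99021, an inhibitor of the kinase GSK3, for 2 days, alone or with Elvitegravir (an inhibitor of HIV integrase), with the MEK inhibitor PD0325901 or with the retinoic acid receptor agonist CD1530. S2 aggregates were S1 cells given a medium named 4C-64C for 1 day, and S3 aggregates were S2 aggregates given it for 1 day more. At both stages 4 further groups lacked 8Br-cAMP (a cyclic AMP analog), Birabresib (an inhibitor of BET proteins), CHIR-99021 or CD1530. S5 aggregates were day-1 S4 aggregates grown for 3 days in peri-implantation medium on Aggrewell plates, and 4 further groups lacked Activin A, BMP4, FGF4 or XAV 939 (an inhibitor of tankyrase). S4 was not analysed here. All aggregates came from the same EPSC line. No label states separate cultures for a group's libraries, so the p-values measure the spread between these libraries, which may be technical.

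Libraries held from 16.6 to 108 M counts. The EPSC libraries 1 and 2, the 2-day S1 cells and the CHIR-99021 arms, 12 libraries in all, stand apart from the other 40: 3756 of the 25056 tested genes (15%) are listed at 0 in all 12, among them Rpl13, Cox4i1 and Sox2, genes that the other 40 libraries hold at 647 to 1606 CPM, 201 to 423 CPM and 115 to 505 CPM. The same holds for 15 members, for which the 12 libraries are read here as giving no value: 2210409E12Rik, A730049H05Rik, 1700023B13Rik, 4930579G18Rik, A930024E05Rik, 1300002E11Rik, 3830406C13Rik, C130083M11Rik, 6430548M08Rik, B930095G15Rik, A930004J17Rik, 2810013P06Rik, 4933439C10Rik, 2810004N23Rik and 2410141K09Rik. The labels call all 4 EPSC libraries by the same line and medium, but of the other 135 members 17 were over 2-fold higher in EPSC libraries 1 and 2 than in 3 and 4, and 10 were over 2-fold lower. Each tested change below is therefore taken within 1 of the 2 sets of libraries. The difference of responses between EPSCs and mESCs sets a change in one set against a change in the other, and levels from both sets that stand side by side are a description. Counts from 1 to 10 were even in 40.7% to 42% of cases in EPSC libraries 3 and 4 and passages 25 and 38, and in 66.8% to 80.5% in the other 46 libraries, a sign that read pairs were not counted in the same way in both. The part of that difference in comparisons across it (mESCs against EPSCs, aggregates against passage 25, and the choice of the members) was not tested. The 6 pluripotency markers summed to 4115 to 4202 CPM in EPSC libraries 3 and 4, 2052 to 2112 CPM in libraries 1 and 2 (with Sox2 listed at 0) and 283 to 298 CPM in 2-day S1 cells. In bulk RNA, fewer cells that express a gene and less RNA per cell cannot be told apart.

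By GENCODE M21 on GRCm38, 93 members (62%) are protein coding, 50 (33.3%) are long noncoding, 3 are pseudogenes, 2 are loci still to be experimentally tested and 2 are not in the annotation. Among the 1220 other Rik genes that were tested, 19.3% are protein coding and 65.4% long noncoding. That contrast goes with the floor of 5 CPM in the rule, since 83.9% of the 56 Rik genes that passed the floor and missed the first 150 ranks are protein coding. Protein-coding genes made up 73.8% of the members that peaked at passage 38 and 76.2% of those that peaked at S2, against 52.6% at S3 and 53.3% at S5. There are 10 members on the X chromosome (6.67%), against 2.38% of the other tested Rik genes. Exons of 58 members share at least 1 base with an exon of another gene, and the shared part exceeds 25% of the exonic bases in 10 members and 50% in 3. The sources used here do not give the strand setting of the counting, so reads of such members may belong to the partner gene.

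Promoter windows from RefSeq on GRCm38.p6, running from 250 bases before to 50 bases after an annotated start, were found for 117 members. They are shown for 5 members of contrasting stage pattern that the results below return to. Capitals mark matches, on either strand, to 1 of 9 short motifs. They are the octamer bound by POU factors (ATGCAAAT), the DUX motif (TGATT, any 2 bases, then ATCA), the cyclic AMP response element (TGACGTCA), a site of GATA factors (AGATAA), a site of TEAD factors (GGAATG), the TATA box (TATAAA), the GC box (GGGCGG), the CCAAT box, and a site of TCF/LEF factors (CTTTGAT) that was added after the values were seen. The window of 1700013H16Rik, highest at passage 38, lies on the minus strand at chrX:53757782-53758081. The window of 1110002J07Rik, high at S1, S2 and S3, lies on the minus strand at chr10:66920335-66920634. The window of 2510009E07Rik, highest at S3, lies on the minus strand at chr16:21694616-21694915, and that of E330020D12Rik, also highest at S3, on the minus strand at chr1:153414184-153414483. The window of 2610528J11Rik, highest at S5, lies on the plus strand at chr4:118527025-118527324.
1700013H16Rik: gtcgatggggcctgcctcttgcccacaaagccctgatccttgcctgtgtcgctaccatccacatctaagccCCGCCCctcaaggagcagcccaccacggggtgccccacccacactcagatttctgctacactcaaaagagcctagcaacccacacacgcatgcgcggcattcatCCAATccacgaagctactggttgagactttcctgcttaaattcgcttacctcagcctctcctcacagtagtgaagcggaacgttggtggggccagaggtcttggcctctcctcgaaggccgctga
1110002J07Rik: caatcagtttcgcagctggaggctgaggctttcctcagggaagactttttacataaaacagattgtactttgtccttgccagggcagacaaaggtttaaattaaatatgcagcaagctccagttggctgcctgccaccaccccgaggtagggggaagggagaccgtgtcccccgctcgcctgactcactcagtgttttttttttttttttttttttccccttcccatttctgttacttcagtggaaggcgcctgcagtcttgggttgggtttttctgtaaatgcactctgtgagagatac
2510009E07Rik: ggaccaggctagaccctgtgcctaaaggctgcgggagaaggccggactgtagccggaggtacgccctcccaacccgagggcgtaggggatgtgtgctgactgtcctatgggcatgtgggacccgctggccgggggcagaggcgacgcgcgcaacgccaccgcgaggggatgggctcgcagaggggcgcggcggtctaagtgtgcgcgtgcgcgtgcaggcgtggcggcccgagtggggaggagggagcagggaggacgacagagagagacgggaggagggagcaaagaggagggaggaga
E330020D12Rik: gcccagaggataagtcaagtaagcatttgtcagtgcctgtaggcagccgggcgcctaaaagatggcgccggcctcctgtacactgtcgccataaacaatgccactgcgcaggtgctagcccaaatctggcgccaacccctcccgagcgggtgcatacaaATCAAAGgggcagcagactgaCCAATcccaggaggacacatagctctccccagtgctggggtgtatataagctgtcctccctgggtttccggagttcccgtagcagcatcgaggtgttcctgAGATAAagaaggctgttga
2610528J11Rik: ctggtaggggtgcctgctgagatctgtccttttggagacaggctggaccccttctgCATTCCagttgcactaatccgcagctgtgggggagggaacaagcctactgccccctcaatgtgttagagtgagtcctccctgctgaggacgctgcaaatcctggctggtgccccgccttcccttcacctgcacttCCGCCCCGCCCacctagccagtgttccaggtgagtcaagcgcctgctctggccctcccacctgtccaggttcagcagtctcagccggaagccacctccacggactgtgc
The window of 1700013H16Rik holds a GC box on the reverse strand and a CCAAT box. Those of 1110002J07Rik and 2510009E07Rik hold none of the 9 motifs, and 69.7% of the bases of the latter are G or C. The window of E330020D12Rik holds a TCF/LEF match on the reverse strand, a CCAAT box and a site of GATA factors, and that of 2610528J11Rik a TEAD match and a pair of GC boxes that overlap by 1 base, all on the reverse strand.

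The windows of the members are richer in G and C than those of genes at large, with a median of 59% against 52.7% over all 27025 RefSeq windows. The observed number of CpG pairs over the number expected from base content has a median of 0.718, against 0.389. A GC box stands in 53.8% of the members' windows and in 35.9% of all, a TATA box in 5.98% and 14.2%, and a CCAAT box in 42.7% and 37.9%. The DUX motif, the binding site of a factor of the 2-cell stage, stands in none of the 117 windows and in 0.233% of all. TCF/LEF matches stand in 2.56% and 3.72%, GATA in 7.69% and 11.4%, TEAD in 16.2% and 14.6%, the octamer in 2.56% and 1.75%, and the cyclic AMP element in 4.27% and 1.88%. By stage the share with a GC box was 47.1% for members that peaked at passage 38, 41.2% at S2, 56.5% at S3 and 70% at S5. These are matches of letters and say nothing of factor binding. Members had to pass the floor of 5 CPM, while the RefSeq windows were taken whatever the level of the gene. The part of that floor in these differences was not tested.

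The selection ratio ran from 85.9 to 1.54 with a median of 2.25. It was at least 2 in 94 members, at least 3 in 41, at least 5 in 19 and at least 10 in 10. Around the last rank 1110019D14Rik had 1.55 and 1700109H08Rik 1.54 inside it, and 4930452B06Rik (now Cfap20dc) 1.53 and 2310057M21Rik 1.53 outside. Per kilobase of exon, the mean level at the peak stage ran from 0.192 CPM for 9330162G02Rik to 129 CPM for 1700013H16Rik, with a median of 5.71 over the 148 annotated members. Since the passage-38, S2, S3 and S5 full-medium libraries chose the members, differences among them are given as description with no test. Tests use the other 44 libraries, and a member is said to have risen or fallen only at an adjusted p below 0.05 and a change of at least 2-fold.

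**Figure D1:**
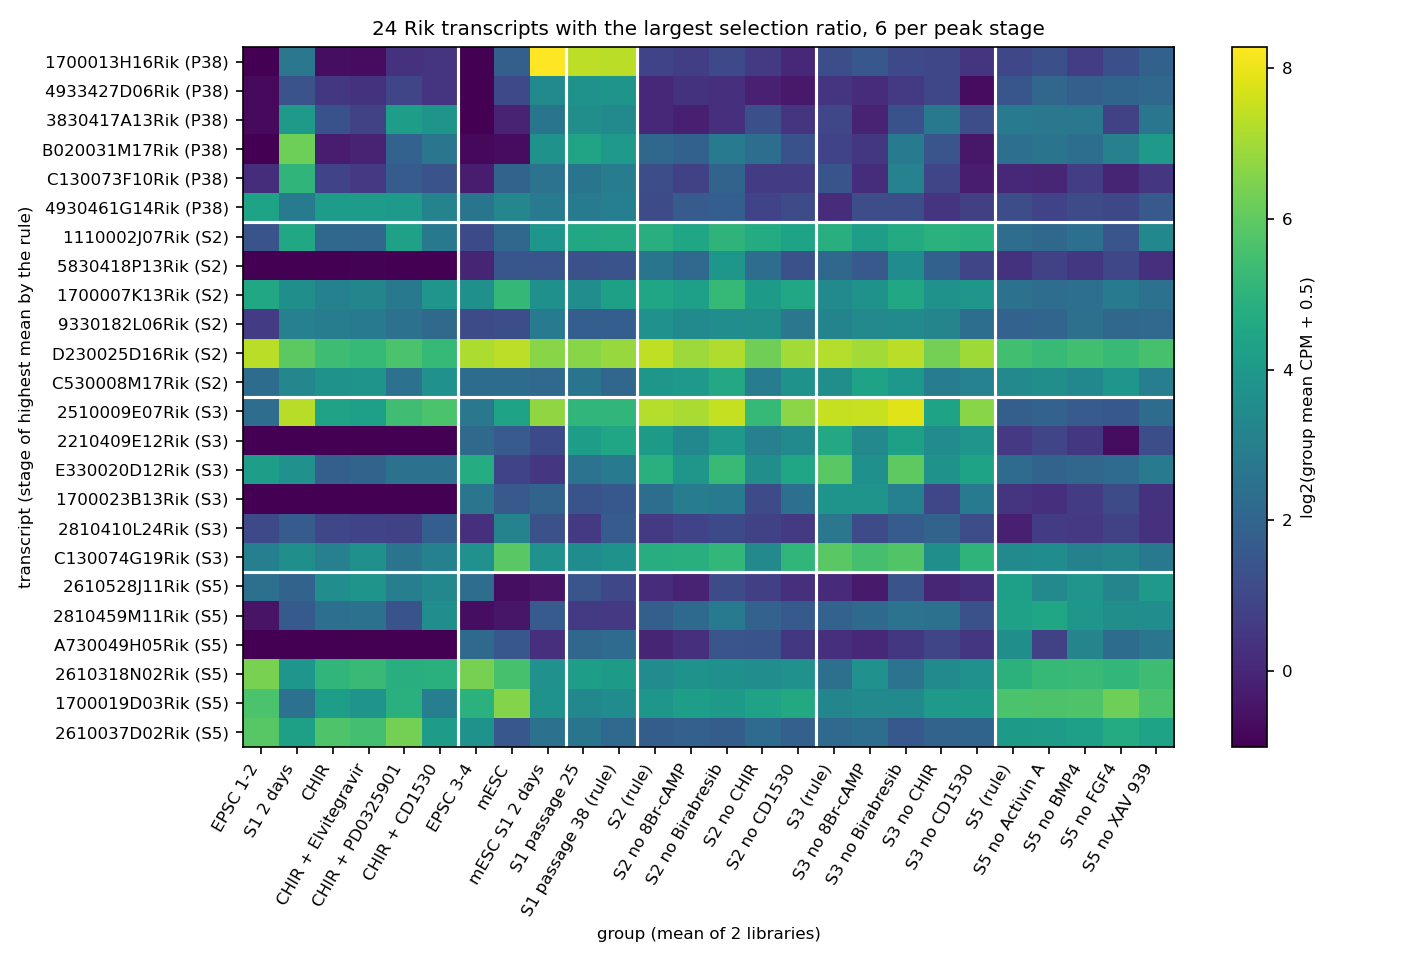
Level of the 24 members with the largest selection ratios, 6 per peak stage (rows), in the 26 groups (columns), as log2 of mean CPM plus 0.5, n = 2 libraries per group. Brighter cells are higher levels. In the full-medium columns the 6 rows that peak at S3 are brighter at S3 than at S5, and that of 2810410L24Rik is dark at S2. The rows that peak at S5 are brighter in the full-medium S5 column than at S3, and A730049H05Rik is dark again in the column without Activin A.

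Members that peaked at passage 38 were led by 1700013H16Rik (chrX:53742901-53757831, minus strand, 9 exons, protein coding). RefSeq lists it also as Slx2 and Xlr6, a member of a multicopy X-linked family, so reads of near-identical copies may be split or shared. Its level was 150 and 165 CPM in the passage-38 libraries, 1.51 and 1.17 CPM at S2, 1.72 and 1.95 CPM at S3, and 1.69 and 1.24 CPM at S5. Aggregates without 1 agent were as low, with medians of 0.962, 1.45 and 1.91 CPM over the 8 omission libraries at S2, S3 and S5 and a highest value of 3.86 CPM. Passage-25 cells, which the rule did not use, had 159 and 166 CPM. No aggregate library came near the long-passaged cells.

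The starting cells placed 1700013H16Rik differently. It had no count in any of the 4 EPSC libraries, 4.95 and 6.94 CPM after 2 days in totipotency medium, 2.57 and 3.42 CPM in mESCs, and 315 and 304 CPM in mESCs after 2 days in the same medium. The treated mESCs were the highest of all 26 groups, and the 2-day S1 cells stayed far below the passage-25 cells. Against the EPSC floor of 3 counts per library the level was at least 88.9-fold higher in 2-day S1 cells and at least 1057-fold higher at passage 25. In mESCs the rise with the medium was 6.62 ± 0.35 on the log2 scale (SE, adjusted p = 3.1e-17), and from passage 25 to the S2 omission groups the level fell by 7.33 ± 0.22 (adjusted p = 1.3e-24). These and all later adjusted p-values are from the quasi-likelihood test of edgeR with Benjamini-Hochberg adjustment over 25056 genes.

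The other leading members of passage 38 shared the high level in cells kept in the totipotency medium, with different starting points. The long noncoding RNA 4933427D06Rik (chr6:88950683-89110031) had 13.7 and 13.3 CPM at passage 38, 13.7 and 11.8 CPM at passage 25, 9.6 and 10.9 CPM in treated mESCs, and 0.28 to 0.909 CPM in full-medium S2 and S3. It was listed at 0 in EPSC libraries 3 and 4 and was at least 83-fold higher at passage 25. The protein-coding gene 3830417A13Rik (chrX:64173548-64178778) had 7.97 and 12.2 CPM at passage 38, 12.3 and 10.7 CPM at passage 25, and no count in EPSC libraries 3 and 4, a rise of at least 74.8-fold. Both fell from passage 25 to the S2 omission groups, by 4.64 ± 0.30 (adjusted p = 2.3e-15) and by 3.77 ± 0.29 (adjusted p = 3.6e-13).

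B020031M17Rik (chr13:119949357-119950806, protein coding) and C130073F10Rik (chr4:101890020-101893789, protein coding) were highest in the 2-day S1 cells, not at passage 38. B020031M17Rik was listed at 0 in EPSC libraries 1 and 2 and had 72.2 and 75.9 CPM in 2-day S1 cells, at least 1108-fold more. It then had 20.8 and 21.1 CPM at passage 25, 14.6 and 16 CPM at passage 38, and 3.69 and 4.17 CPM at S2. C130073F10Rik went from 0.896 and 0.418 CPM in EPSCs to 36.3 and 29 CPM, a rise of 5.35 ± 0.36 (adjusted p = 2.5e-15), and had 5.58 and 5.59 CPM at passage 25. The long noncoding RNA 4930461G14Rik stood at 8.22 and 6.84 CPM at passage 38 but at 20.4 and 20.1 CPM in EPSC libraries 1 and 2, and it fell by 1.87 ± 0.22 in 2-day S1 cells (adjusted p = 4.1e-09). So for these 3 the peak named by the 4 stages of the rule was not the highest of the 26 groups. The same holds for 1700013H16Rik, highest in treated mESCs, and for 3830417A13Rik, which was higher in 2-day S1 cells and with PD0325901 added to CHIR-99021 than at passage 38.

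**Figure D2:**
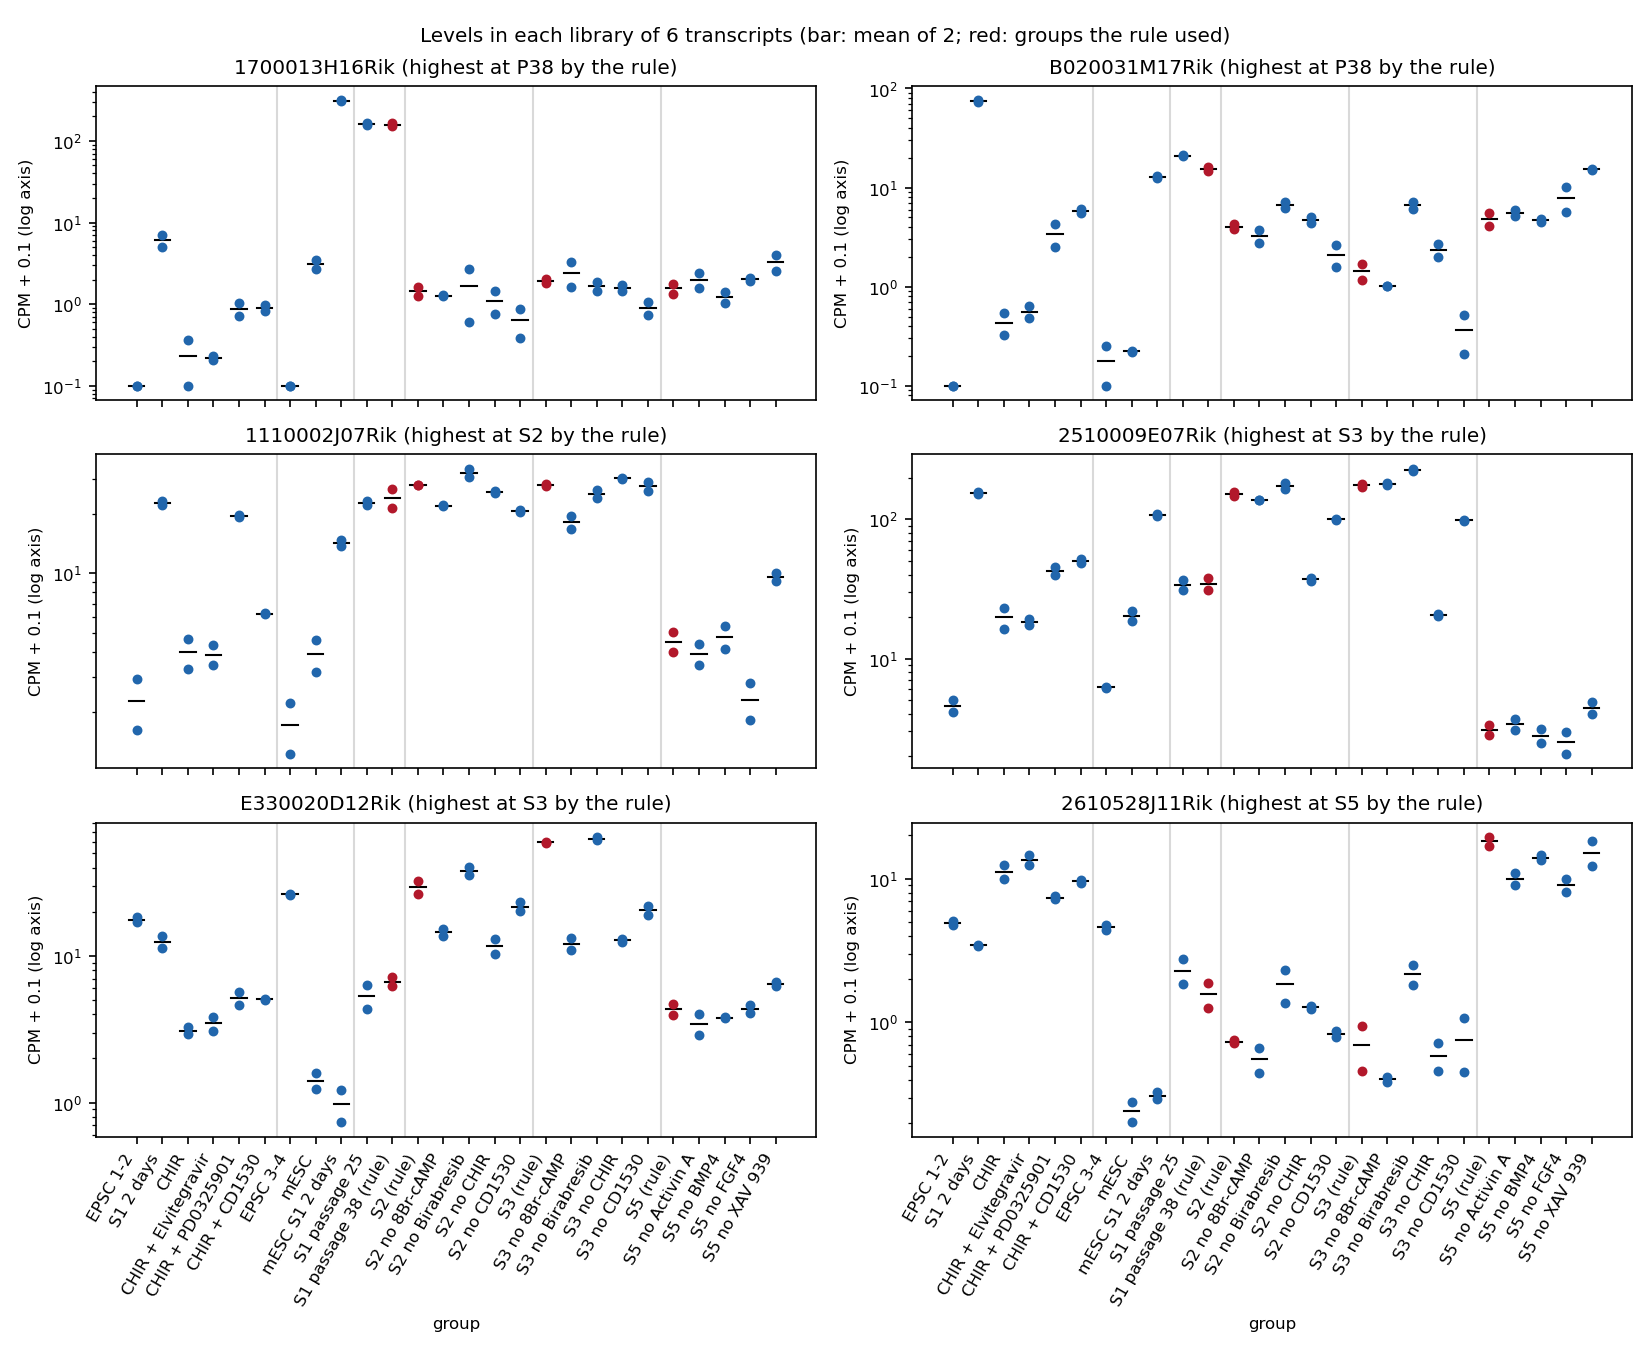
CPM plus 0.1 on a log axis in every library for 1700013H16Rik, B020031M17Rik, 1110002J07Rik, 2510009E07Rik, E330020D12Rik and 2610528J11Rik, with 1 point per library and the libraries of the 4 groups used by the rule in red. The points of 1700013H16Rik stand high in passages 25 and 38 and in treated mESCs, those of 2510009E07Rik drop at S2 and S3 where CHIR-99021 is left out, and those of 2610528J11Rik rise in every S5 group.

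Members that peaked at S2 were led by 1110002J07Rik, a long noncoding RNA (chr10:66912489-66920258, minus strand). It had 27.9 and 27.7 CPM at S2, 28.1 and 27.4 CPM at S3 and 26.6 and 21.2 CPM at passage 38, and 4.95 and 3.9 CPM at S5. It is thus a transcript of all stages but S5, and its S2 and S3 libraries overlap. Its level was 2.84 and 1.51 CPM in EPSC libraries 1 and 2, 23 and 22 CPM in 2-day S1 cells, 2.11 and 1.13 CPM in EPSC libraries 3 and 4, and 22 and 23.1 CPM at passage 25. The rise was 3.09 ± 0.22 after 2 days (adjusted p = 7.5e-15) and 3.70 ± 0.26 at passage 25 (adjusted p = 1.3e-14).

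The antisense transcript 5830418P13Rik (chr9:103423578-103461260), with 7.27% of its exonic bases in exons of Bfsp2, had 5.71 and 5.53 CPM at S2, 3.45 and 4.05 CPM at S3 and 0.821 and 0.76 CPM at S5. 9330182L06Rik, which RefSeq now names Elapor2, had 12.6 and 12.4 CPM at S2, 9.32 and 8.03 CPM at S3 and 2.77 and 3.07 CPM at passage 38. It rose in 2-day S1 cells by 2.66 ± 0.24 (adjusted p = 4.3e-12), from 1.04 and 0.977 CPM in EPSCs to 7.5 and 7.98 CPM. D230025D16Rik, with 164 and 167 CPM at S2, went the other way at the start: it had 156 and 159 CPM in EPSC libraries 1 and 2 and 60.6 and 62.5 CPM in 2-day S1 cells, a fall of 1.63 ± 0.076 (adjusted p = 6.2e-20). C530008M17Rik, now Cracd, an actin regulator, had 14.4 and 14.9 CPM at S2 and 3.37 and 3.95 CPM at passage 38. The members that peak at S2 thus came from both high and low levels in EPSCs.

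Members that peaked at S3 were led by 2510009E07Rik (chr16:21649045-21694665, minus strand, 5 exons, protein coding, 4365 bases from Vps8). Its level was 37.6 and 30.9 CPM at passage 38, 157 and 146 CPM at S2, 172 and 179 CPM at S3, and 3.24 and 2.7 CPM at S5. The 8 S5 omission libraries lay between 1.95 and 4.75 CPM and the 8 at S3 between 20.3 and 232 CPM, with no overlap. From the S3 to the S5 omission groups it fell by 4.96 ± 0.074 (adjusted p = 4.3e-35). It was already high in 2-day S1 cells, at 152.1 and 158 CPM against 4.9 and 4.05 CPM in EPSC libraries 1 and 2, a rise of 4.84 ± 0.14 (adjusted p = 9.6e-26), and it was lower at passage 25, at 36.3 and 30.8 CPM.

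The noncoding E330020D12Rik (chr1:153404827-153414233, minus strand) stood at S3 well above the other 3 stages of the rule. It had 7.03 and 6.09 CPM at passage 38, 32.1 and 26.4 CPM at S2, 59.2 and 59.5 CPM at S3, and 3.87 and 4.6 CPM at S5. In EPSCs it had 16.8 and 18.2 CPM in libraries 1 and 2 and 26.3 and 26.1 CPM in libraries 3 and 4, and it was low in mESCs at 1.48 and 1.14 CPM. From passage 25, at 4.27 and 6.19 CPM, it rose by 1.92 ± 0.17 to the S2 omission groups (adjusted p = 5.2e-12) and then fell by 2.32 ± 0.09 from S3 to S5 (adjusted p = 7.6e-23). C130074G19Rik (chr1:184871926-184883218, protein coding) had 25.3 and 28.7 CPM at S2, 61 and 58.7 CPM at S3, 8.56 and 12 CPM at S5, and also 60.3 and 58.1 CPM in mESCs.

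The other S3 members described here include transcripts whose identity is less certain. 2210409E12Rik, a pseudogene (chr11:88972657-88973002), has 56.9% of its exonic bases inside exons of Coil on the same strand. It had 22.6 and 24.3 CPM at S3 and 1.21 and 0.717 CPM at S5, and fell from the S3 to the S5 omission groups by 4.16 ± 0.12 (adjusted p = 7.1e-24). Coil fell with it, by 1.60 ± 0.045 (adjusted p = 2.6e-27). 1700023B13Rik, which the annotation does not hold, had 3.8 and 5.29 CPM at S2, 13.3 and 13.6 CPM at S3 and 0.951 and 0.675 CPM at S5. 2810410L24Rik had 6.11 and 5.7 CPM at S3 and 0.432 and 0.338 CPM at S5, and 8.95 and 7.91 CPM in mESCs. 4930447C04Rik, known as Six6os1, a component of the synaptonemal complex of meiotic chromosomes, had a smaller ratio of 1.79, with 64.5 and 63 CPM at S3 and 45.8 and 42.6 CPM at S5.

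Members that peaked at S5 were led by 2610528J11Rik (chr4:118526999-118530228, plus strand, protein coding, TEMP in RefSeq). It had 1.78 and 1.16 CPM at passage 38, 0.615 and 0.651 CPM at S2, 0.839 and 0.362 CPM at S3, and 16.9 and 19.4 CPM at S5. The omission libraries ran from 0.288 to 2.43 CPM at S3, with a median of 0.486, and from 7.95 to 18.1 CPM at S5, with a median of 11.5, and did not overlap. The rise from the S3 to the S5 omission groups was 4.08 ± 0.17 (adjusted p = 2.7e-22). Its level in EPSCs lay between, at 4.3 to 4.99 CPM in the 4 libraries, and in mESCs near 0, at 0.181 and 0.101 CPM.

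2810459M11Rik (chr1:86045863-86055456, protein coding) and A730049H05Rik (chr6:92816478-92847174, protein coding) also rose. 2810459M11Rik had 0.693 and 1.21 CPM at passage 38, 3.4 and 3.12 CPM at S3 and 17.2 and 21.4 CPM at S5. It climbed in steps also in the libraries the rule left out, by 1.99 ± 0.28 from passage 25 to the S2 omission groups (adjusted p = 1.9e-07) and by 1.90 ± 0.11 from the S3 to the S5 omission groups (adjusted p = 4.8e-17). A730049H05Rik had 0.606 and 0.792 CPM at S3 and 10.8 and 12.8 CPM at S5, and rose by 2.16 ± 0.20 (adjusted p = 6.5e-11). It lies opposite Adamts9, an extracellular protease gene, with 36.9% of its exonic bases in exons of that gene, and Adamts9 had 15.3 ± 0.35 CPM at S3 and 115 ± 9.19 CPM at S5 (SD, n = 2).

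Other S5 members had been high in the starting cells and were lower in between. 1700019D03Rik (chr1:52922324-53020179, known as smAKAP, a small anchor of protein kinase A) had 51.1 and 48.4 CPM in EPSC libraries 1 and 2, 29.1 and 30.4 CPM in EPSC libraries 3 and 4, 4.75 and 5.19 CPM in 2-day S1 cells, 10.1 and 8.1 CPM at S3, and 51.2 and 49.2 CPM at S5. 2610318N02Rik (chr16:17113398-17125167, beside the microRNA gene Mir301b) had 84.7 and 84.4 CPM in EPSC libraries 1 and 2, 80.7 and 82.6 CPM in libraries 3 and 4, 14.1 and 14.3 CPM in 2-day S1 cells, 4.82 and 4.91 CPM at S3, and 33.6 and 27.7 CPM at S5, well below the EPSCs. Both fell in 2-day S1 cells, by 3.60 ± 0.15 (adjusted p = 1.7e-21) and by 2.85 ± 0.13 (adjusted p = 4.2e-20), and both rose from the S3 to the S5 omission groups, by 2.11 ± 0.07 (adjusted p = 6.8e-25) and 1.95 ± 0.066 (adjusted p = 1.1e-24). The noncoding 2610037D02Rik (chr15:96134819-96284495) had 4.08 and 3.94 CPM at S3 and 19.1 and 12.8 CPM at S5, and rose by 2.55 ± 0.10 (adjusted p = 1.4e-22).

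Whether the stage order holds outside the 8 libraries that defined it was checked with passage 25 in place of passage 38 and the omission groups in place of the full media. The stage with the highest mean was then the same for 107 of 150 members: 29 of 42 that peaked at passage 38, 12 of 21 at S2, 40 of 57 at S3 and 26 of 30 at S5. No share over other genes stands beside this count, so it shows nothing particular to the members. Of the rest, 9 passage-38 members were highest at S5, 7 S2 members at S3 and 8 S3 members at S2. The S5 group kept its place most often and the S2 group least, and without replicate 1 of the unused groups 99 members kept theirs.

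From passage 25 to the S2 omission groups, 19 members rose and 14 fell, against 4.23% and 13.6% of all tested genes. The median log2 change was 0.13 over the members and -0.04 over all genes. None of the 42 members that peaked at passage 38 rose and 9 fell, with a median of -0.39 (edgeR; 1 higher and 25 lower at an unadjusted p below 0.05, 0 and 11 by DESeq2). Of the 21 that peaked at S2, 7 rose and 0 fell, with a median of 0.82 (16 higher and 1 lower unadjusted, 5 and 0 by DESeq2), and of the 57 that peaked at S3, 9 rose and 0 fell, with a median of 0.44 (36 and 3 unadjusted, 9 and 0 by DESeq2). Passage-38 and full-medium libraries named these peaks, so the directions were partly set by the choice. With no share over other genes of the same peak stage, the counts show nothing particular to the members. E030030I06Rik had the largest rise, from 1.37 and 1.02 CPM at passage 25 to between 4.06 and 6.08 CPM over the 8 S2 omission libraries (2.03 ± 0.29, adjusted p = 2.9e-07). Passage-25 cells also held 201 to 205 CPM summed over 6 genes of 2-cell-like cells and 1291 to 1318 CPM over 6 fibroblast markers of feeder cells, and the part of either in these changes was not tested.

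Between the S2 and S3 omission groups few members were called: 1 rose and 1 fell, against 1.16% and 2.65% of all genes, with medians of 0.04 and -0.00. At an unadjusted p below 0.05 (edgeR), 43 members were higher and 24 lower, and DESeq2 called 1 and 1. In either direction, 7672 of the 25056 tested genes passed that unadjusted limit. B020031M17Rik fell by 1.39 ± 0.16 (adjusted p = 2.1e-08). 3830417A13Rik rose by 1.14 ± 0.25 (adjusted p = 0.000714), a change that was 0.98 without S2 minus Birabresib library 2 and 0.91 without S3 minus 8Br-cAMP library 1 and then passed the 2-fold limit no longer. The 57 members that peaked at S3 had a median of 0.16 here (27 higher and 1 lower unadjusted, 0 and 0 by DESeq2). Full-medium S3 itself stood above all 4 of its omission groups for 30 of these 57 (52.6%), against 19.2% of all tested genes, which describes the libraries that chose them and is not a test.

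From the S3 to the S5 omission groups 20 members rose and 22 fell, against 17.7% and 6.99% of all genes, with medians of -0.21 and 0.07. Of the 30 members that peaked at S5, 15 rose and 0 fell, with a median of 0.98 (edgeR; 30 higher and 0 lower at an unadjusted p below 0.05, 15 and 0 by DESeq2). Of the 57 S3 members 0 rose and 13 fell, with a median of -0.58 (4 and 46 unadjusted, 0 and 12 by DESeq2), and of the 21 S2 members 0 rose and 6 fell, with a median of -0.73 (0 and 18 unadjusted, 0 and 5 by DESeq2). The peak stages were named from full-medium libraries of these same stages, so the directions were partly set by the choice of members. No share over other genes with the same peak stage stands beside these counts, so they show nothing particular to the members. Passage-38 members went both ways, 5 up and 3 down, among them B020031M17Rik, up by 2.38 ± 0.15 (adjusted p = 3.7e-16), and 2410137M14Rik, down by 2.89 ± 0.13 (adjusted p = 2e-20). Summed over 7 markers of extraembryonic endoderm, none of them at 0, the S5 omission libraries held 402 CPM (without FGF4) to 1484 CPM (without Activin A) and the S3 omission libraries 35.2 CPM (without 8Br-cAMP) to 376 CPM (without CHIR-99021), and the part of a change in cell makeup in these differences was not tested.

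**Figure D3:**
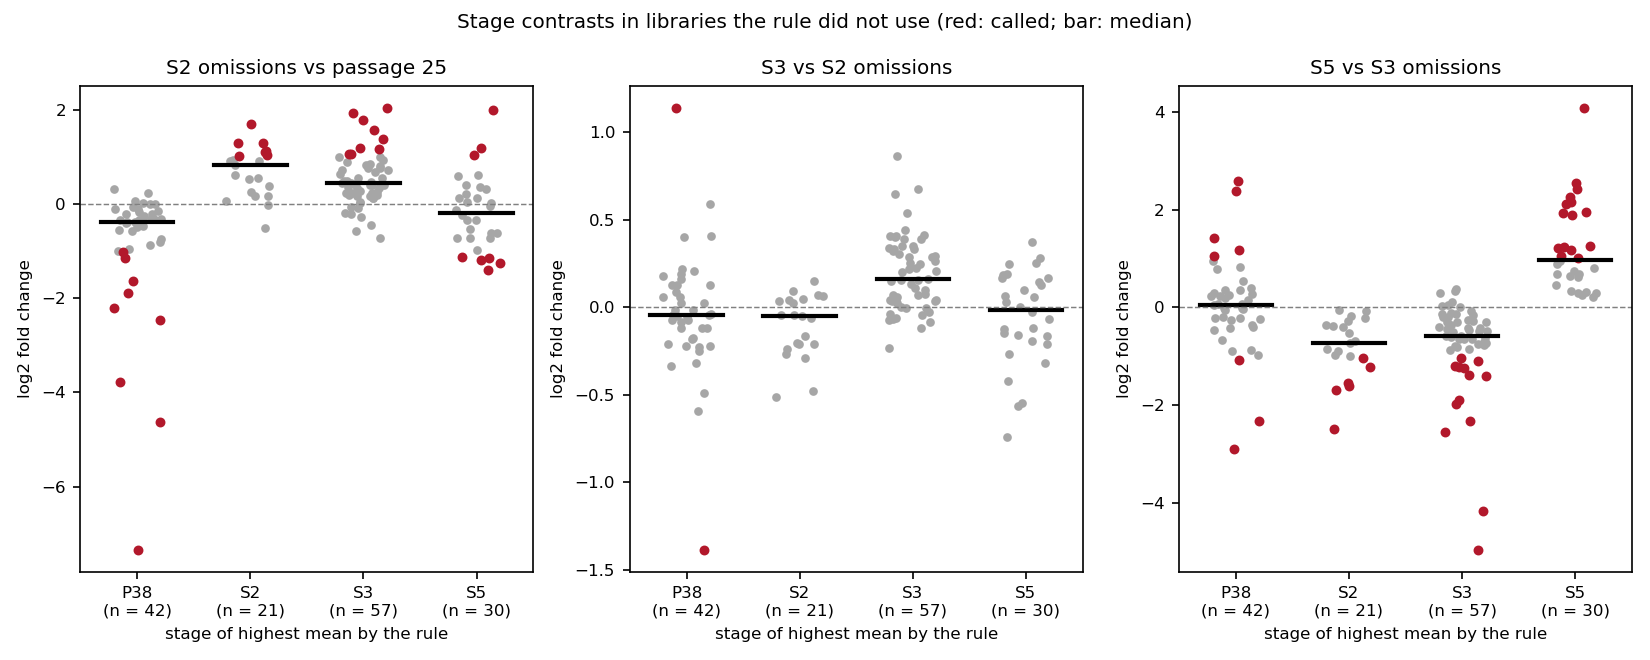
Log2 fold change of each of the 150 members (1 point per member) in 3 comparisons of libraries that the rule did not use, grouped on the horizontal axis by the stage at which the member peaked under the rule. The S5 group lies above 0 and the S2 and S3 groups mostly below 0 from the S3 to the S5 omission groups, while all 4 groups lie near 0 between the S2 and S3 omission groups. The peaks were named from passage-38 and full-medium libraries, so the directions were partly set by the choice, and no other genes are shown.

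Across all 23 comparisons, 113 of the 150 members rose or fell in at least 1, 36 in at least 5 and 5 in at least 10, and 37 in none. No share over all tested genes stands beside these counts, so they show nothing particular to the members. The 5 were 3830417A13Rik (14 comparisons), 2510009E07Rik and B020031M17Rik (13 each), and 6330403L08Rik and D430019H16Rik (11 each), and these 5 were picked for their counts after the values were seen. Of the 113, 54 rose in some comparisons and fell in others. Among the members called in none are some with established names outside the naming rule: 2900097C17Rik is Norad, a long noncoding RNA that binds Pumilio proteins, and had 110 and 116 CPM at passage 38, 147 and 148.6 CPM at S2, 239 and 245 CPM at S3, and 166 and 160 CPM at S5.

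After 2 days in totipotency medium, 23 members rose and 21 fell in EPSCs, against 18.7% and 9.16% of all tested genes. All of these counts rest on the 135 members with values in that set, where 21.9% of 21300 genes rose and 10.8% fell and the medians were -0.09 for members and 0.18 for all genes. The 3 largest rises were those of B020031M17Rik, 1700013H16Rik (both from 0 counts) and 3830417A13Rik, which went from 0.0426 and 0.14 CPM to 16.8 and 14.5 CPM (7.14 ± 0.58, adjusted p = 6e-13). The 3 largest falls were those of 1700019D03Rik, 2610318N02Rik and D930048N14Rik, the last from 17.1 and 15.7 CPM to 4.13 and 3.75 CPM (-2.33 ± 0.23, adjusted p = 5.9e-11). Summed over 6 genes of 2-cell-like cells the 2-day S1 libraries held 1257 to 1366 CPM, with all 6 at 0 in these EPSCs, and over 6 trophectoderm markers 1060 to 1382 CPM against 38.2 to 39.5 CPM. The part of either in the members' changes was not tested.

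In mESCs the same medium raised 23 members and lowered 23, against 14.2% and 8.26% of all genes, with medians of -0.05 and 0.04. After 1700013H16Rik and B020031M17Rik (from 0.121 and 0.127 CPM to 12.5 and 13 CPM; 6.58 ± 0.42, adjusted p = 2e-15) the largest rise was that of 0610040J01Rik, from 0 and 0.203 CPM to 3.92 and 3.16 CPM (4.92 ± 0.38, adjusted p = 1.8e-13). The largest fall was that of 9830144P21Rik, from 19.8 and 23.2 CPM to 2.15 and 1.51 CPM (-3.61 ± 0.32, adjusted p = 1.1e-11), a noncoding transcript with 16.7% of its exonic bases in exons of Slc20a1. 1700019D03Rik fell from 91.3 and 94.4 CPM to 13.1 and 12.5 CPM (-2.92 ± 0.14, adjusted p = 8.3e-19), and D930048N14Rik from 13.2 and 10.5 CPM to 2.68 and 1.83 CPM (-2.45 ± 0.25, adjusted p = 1.5e-10). Six6os1 (4930447C04Rik) rose by 1.34 ± 0.25 (adjusted p = 2.7e-05), and in EPSCs by 1.67 ± 0.25 (adjusted p = 3.9e-07), from 22 and 20.1 CPM to 77.7 and 84.3 CPM. With the medium the mESC libraries went from 0.423 and 0.634 CPM to between 130 and 137 CPM over the 6 genes of 2-cell-like cells (Usp17lb at 0 in untreated mESCs), and from 72.1 to 78.4 CPM to 301 to 303 CPM over the 6 trophectoderm markers (Elf5 at 0 before). The 6 pluripotency markers summed to 3836 to 4023 CPM before and 2429 to 2438 CPM after, and the 6 feeder fibroblast markers to 1776 to 1844 CPM and 882 to 886 CPM, none of either at 0. The part of these cells was not tested.

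The response to the medium was also compared between the lines as a difference of responses, a comparison added after the values were seen. It was lower in mESCs for 26 members and higher for 14, against 9.97% and 8.70% of all genes, and for 21300 genes with values in both sets against 11.7% and 10.2%. C130073F10Rik, which rose by 5.35 in EPSCs, went from 3.42 and 3.4 CPM to 5.64 and 4.88 CPM in mESCs, a difference of -4.78 ± 0.46 (adjusted p = 1.1e-10). C130074G19Rik was at 7.93 and 7.12 CPM in EPSCs and 12.4 and 11.2 CPM in 2-day S1 cells, but fell from 60.3 and 58.1 CPM to 11.5 and 13.2 CPM in mESCs (difference -2.71, adjusted p = 3.5e-09). 2610037D02Rik was the one member called in opposite directions among those named here: it fell from 59.7 and 55 CPM to 18 and 19.6 CPM in EPSCs, and rose from 1.72 and 2.97 CPM to 4.77 and 5.4 CPM in mESCs (difference 2.92, adjusted p = 1.2e-10).

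Before any treatment, 28 members were higher and 21 lower in mESCs than in EPSC libraries 3 and 4, against 9.66% and 9.94% of all genes, with medians of 0.07 and 0. The cells differ in line and in medium, which cannot be told apart. Of the members lower in mESCs, the largest differences were those of 2610528J11Rik (4.68 and 4.3 CPM in EPSCs; -4.95 ± 0.45, adjusted p = 2.3e-11) and E330020D12Rik (-4.28 ± 0.21, adjusted p = 1.2e-18). The noncoding 4930556M19Rik followed, with 0.302 and 0.254 CPM against 2.78 and 1.99 CPM (-3.06 ± 0.31, adjusted p = 2e-10). Against the floor of EPSC libraries 3 and 4, 1700013H16Rik was at least 19.5-fold, 4933427D06Rik at least 10.2-fold and 3830417A13Rik at least 2.79-fold higher in mESCs. The call of 3830417A13Rik, at 0.605 and 0.254 CPM, was lost without mESC library 1 or without either EPSC library. The 6 feeder fibroblast markers summed to 1776 to 1844 CPM in mESCs and 542 to 544 CPM in these EPSCs, and their part was not tested.

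At passage 25, 27 members were higher and 19 lower than in EPSC libraries 3 and 4, against 13.2% and 5.50% of all genes, with medians of -0.17 and 0.02. This comparison shares the EPSC libraries with the one before. Among the rises were those of 1700013H16Rik, 4933427D06Rik and 3830417A13Rik, given above as lower bounds, and of B020031M17Rik, from 0.154 and 0 CPM to 20.8 and 21.1 CPM. With so few counts in EPSCs the order of these 4 rises is not known. The falls were led by D930048N14Rik, from 18.2 and 15 CPM to 3.48 and 2.88 CPM (-2.48 ± 0.26, adjusted p = 5.8e-10), E330020D12Rik (-2.43 ± 0.19, adjusted p = 4.3e-13) and 2610318N02Rik, from 80.7 and 82.6 CPM to 17 and 18.9 CPM (-2.29 ± 0.13, adjusted p = 1.2e-16). D930048N14Rik and 2610318N02Rik had thus fallen in 2-day S1 cells, in treated mESCs and at passage 25. Passage-25 cells held 945 to 976 CPM over the 6 trophectoderm markers and 201 to 205 CPM over the 6 genes of 2-cell-like cells, against 79.5 to 80.7 CPM (Elf5 at 0) and 0.103 to 0.153 CPM (4 of 6 at 0, all but Zscan4c and Zscan4d) in EPSC libraries 3 and 4. The 6 feeder fibroblast markers summed to 1291 to 1318 CPM against 542 to 544 CPM, and the 6 pluripotency markers to 1921 to 1935 CPM against 4115 to 4202 CPM, none of either at 0. Their part in the members' changes was not tested.

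CHIR-99021 alone for 2 days raised 16 members and lowered 17, against 11.7% and 6.99% of all genes (13.7% and 8.23% of the 21300 genes with values in that set, with medians of -0.07 for members and 0.09 for all). It shares EPSC libraries 1 and 2 with the totipotency medium comparison, and the 2 CHIR-99021 libraries differed more from each other than those of any other group, with an SD of the members' log2 difference of 0.495. 2410137M14Rik, a protein-coding gene beside the histocompatibility gene H2-M5, fell from 10.2 and 9.91 CPM to 0.176 and 0.419 CPM (-5.33 ± 0.30, adjusted p = 3.8e-17). 2810459M11Rik rose from 0.213 and 0.186 CPM to 4.65 and 4.87 CPM (4.41 ± 0.34, adjusted p = 2e-13), and 3830417A13Rik to 1.15 and 2.89 CPM (4.24 ± 0.67, adjusted p = 2.2e-06). B020031M17Rik, at 0.441 and 0.229 CPM, was at least 5.01-fold above the floor, and its call was lost in the fit on these groups alone. 2410003I16Rik fell from 4.12 and 4.81 CPM to 0.816 and 0.686 CPM (-2.68 ± 0.25, adjusted p = 3.9e-11), and E330020D12Rik to 3.15 and 2.82 CPM (-2.67 ± 0.19, adjusted p = 2.4e-14). The CHIR-99021 libraries held 182 to 207 CPM over the 6 pluripotency markers, against 2052 to 2112 CPM in these EPSCs (Sox2 listed at 0 in both), and 143 to 160 CPM over the 7 extraembryonic endoderm markers, against 14.6 to 15.4 CPM (none at 0). The part of either was not tested.

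A second compound was then added to CHIR-99021, and the 3 comparisons share the CHIR-99021 libraries. With Elvitegravir no member rose or fell under edgeR, against 0.00399% and 0.00399% of all genes. At an unadjusted p below 0.05, 16 members were higher and 20 lower, and DESeq2 called 0 and 0. Without CHIR-99021 library 1 the count of called members was 11.

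With PD0325901, 8 members rose and 2 fell, against 3.27% and 1.24% of all genes (3.85% and 1.46% of genes with values), with medians of 0.01 and 0.02. 2410137M14Rik went back to 5.17 and 4.81 CPM (4.20 ± 0.30, adjusted p = 4.7e-13). 3830417A13Rik reached 12.9 and 21.8 CPM (3.16 ± 0.41, adjusted p = 3.8e-07), B020031M17Rik 2.39 and 4.18 CPM (3.11 ± 0.38, adjusted p = 1.7e-07) and 1110002J07Rik 19.2 and 19.6 CPM from 4.59 and 3.2 CPM (2.30 ± 0.21, adjusted p = 1.8e-10). C530008M17Rik fell by 1.28 ± 0.17, from 13.3 and 12.6 CPM to 5.64 and 4.72 CPM (adjusted p = 8.8e-07), and 2810459M11Rik by 1.04 ± 0.24 (adjusted p = 0.00237), which was 0.80 lower without PD0325901 library 2. Only 1 member was called when the 2 groups were fitted alone, and 3830417A13Rik, B020031M17Rik, C530008M17Rik and 2810459M11Rik were among those lost. The PD0325901 libraries held 75.4 to 116 CPM over the 6 genes of 2-cell-like cells, against 7.54 to 9.67 CPM with CHIR-99021 alone, and the part of such cells was not tested.

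With CD1530, 14 members rose and 13 fell, against 9.74% and 6.91% of all genes (11.5% and 8.13% of genes with values), with medians of -0.09 and 0. 2200002D01Rik, a protein-coding gene with 23.1% of its exonic bases in exons of Yif1b, rose from 0.86 and 0.381 CPM to 14.7 and 14 CPM (4.41 ± 0.35, adjusted p = 4.2e-13). B020031M17Rik rose to 5.97 and 5.46 CPM (3.96 ± 0.37, adjusted p = 4.2e-11) and 3830417A13Rik to 14.6 and 12.6 CPM (2.81 ± 0.40, adjusted p = 4.4e-07). Six6os1 (4930447C04Rik) fell from 90.5 and 178 CPM, a wide pair, to 28.9 and 30.5 CPM (-2.17 ± 0.25, adjusted p = 4.4e-09), and 2610037D02Rik from 45.4 and 59.8 CPM to 16.3 and 17.1 CPM (-1.65 ± 0.18, adjusted p = 1.9e-09). 9830144P21Rik was at least 2.87-fold lower with CD1530, at 0 counts, a call lost without CHIR-99021 library 2 and in the fit on these groups alone. These libraries held 1461 to 1469 CPM over the 7 extraembryonic endoderm markers, against 143 to 160 CPM with CHIR-99021 alone, and the part of such cells was not tested.

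**Figure D4:**
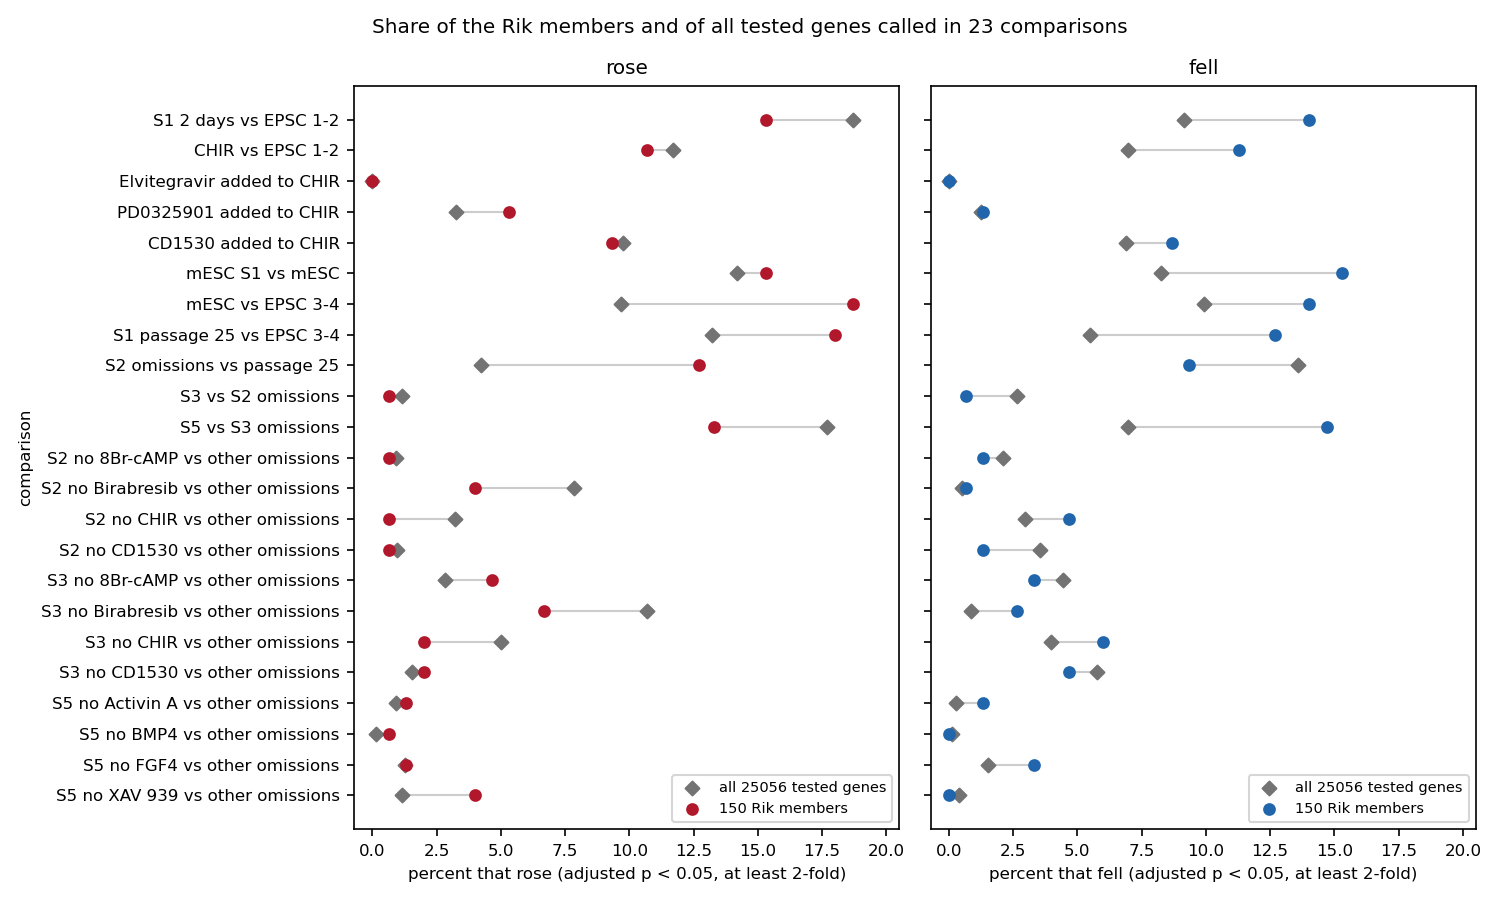
Percent of the 150 members and of all 25056 tested genes that rose (left panel) and fell (right panel) in each of 23 comparisons. The members' shares that fell pass those of all genes in the change from S3 to S5 and where CHIR-99021 was left out. They also do so in other comparisons, among them 2-day S1 cells and CHIR-99021 alone against EPSCs, and treated against untreated mESCs. In the rest they lie below those of all genes. The members' shares that rose lie below those of all genes in the 2-day S1 comparison, among others. The same holds from S3 to S5 and where Birabresib was left out, while in further comparisons they lie above.

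Each omission was compared with the other 3 omission groups of its stage, so these contrasts share libraries with each other, and the full medium, which chose the members, was left out. A rise or fall is therefore one against those groups and need not be one against the full medium. Leaving out CHIR-99021 lowered 7 members and raised 1 at S2, against 2.97% and 3.21% of all genes, with medians of -0.09 and 0. At S3 it lowered 9 and raised 3, against 3.97% and 5.00%, with medians of -0.12 and 0.00. Of the 7 that fell at S2, 5 were members that peaked at S3, and of the 9 at S3, 6 were. The 57 members that peaked at S3 had medians of -0.29 and -0.24. The S3 libraries without CHIR-99021 also held 1090 to 1108 CPM over the 6 trophectoderm markers, and the part of these cells was not tested.

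2510009E07Rik lost most of its level without CHIR-99021. At S2 it had 36.2 and 37.6 CPM without CHIR-99021, 137 and 138 CPM without 8Br-cAMP, 183 and 165 CPM without Birabresib, and 99.1 and 101 CPM without CD1530. At S3 it had 20.8 and 20.3 CPM, against 176 and 181, 225 and 232, and 97.4 and 98.8 CPM in the same order. The no-CHIR-99021 libraries lay below all others at both stages, with falls of 1.79 ± 0.11 at S2 (adjusted p = 7.9e-16) and 2.92 ± 0.12 at S3 (adjusted p = 3.1e-21). The fall was larger at S3 by 1.13 ± 0.14 (adjusted p = 1.3e-06), in a difference of contrasts added after the values were seen, for which 2 members were higher and 2 lower against 0.686% and 0.774% of all genes. In EPSCs, CHIR-99021 for 2 days had raised it from 4.9 and 4.05 CPM to 16.2 and 23.1 CPM (1.98 ± 0.14, adjusted p = 1.3e-14).

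Other S3 members fell with it. 1700023B13Rik had 1.8 and 1.64 CPM at S2 and 1.2 and 1.74 CPM at S3 without CHIR-99021, against 4.67 to 7.76 CPM and 5.79 to 13.5 CPM over the other 6 omission libraries of each stage (-1.70 ± 0.25, adjusted p = 3.3e-06, and -2.55 ± 0.26, adjusted p = 2.1e-09). C130074G19Rik had 7.93 and 11.6 CPM and 11.8 and 11.6 CPM, against 28.3 to 37.1 CPM and 31.9 to 53.4 CPM over the same libraries (-1.66 ± 0.19, adjusted p = 1.4e-08, and -1.84 ± 0.19, adjusted p = 7.8e-10). 4930556M19Rik fell at S3, to 1.56 and 1.64 CPM (-1.88 ± 0.20, adjusted p = 1e-09). D430019H16Rik, a member that peaked at S5, fell at S2, to 1.51 and 1.75 CPM (-1.83 ± 0.23, adjusted p = 1e-07), and at S3, to 3.07 and 1.59 CPM (-1.53 ± 0.22, adjusted p = 7.8e-07).

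The members that rose without CHIR-99021 were passage-38 members and 1 S5 member. 3830417A13Rik had 1.88 and 1.96 CPM at S2 and 5.68 and 6.75 CPM at S3, above every other omission library of its stage (1.71 ± 0.37, adjusted p = 0.000596, and 2.44 ± 0.30, adjusted p = 4.6e-08). 4933427D06Rik had 1.13 and 1.79 CPM at S3 (1.83 ± 0.38, adjusted p = 0.000297). 9830144P21Rik rose at S3 by 1.04 ± 0.23 (adjusted p = 0.000667), which was 0.99 without S3 minus CHIR-99021 library 1 and 0.96 without S3 minus Birabresib library 2, under the 2-fold limit.

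**Figure D5:**
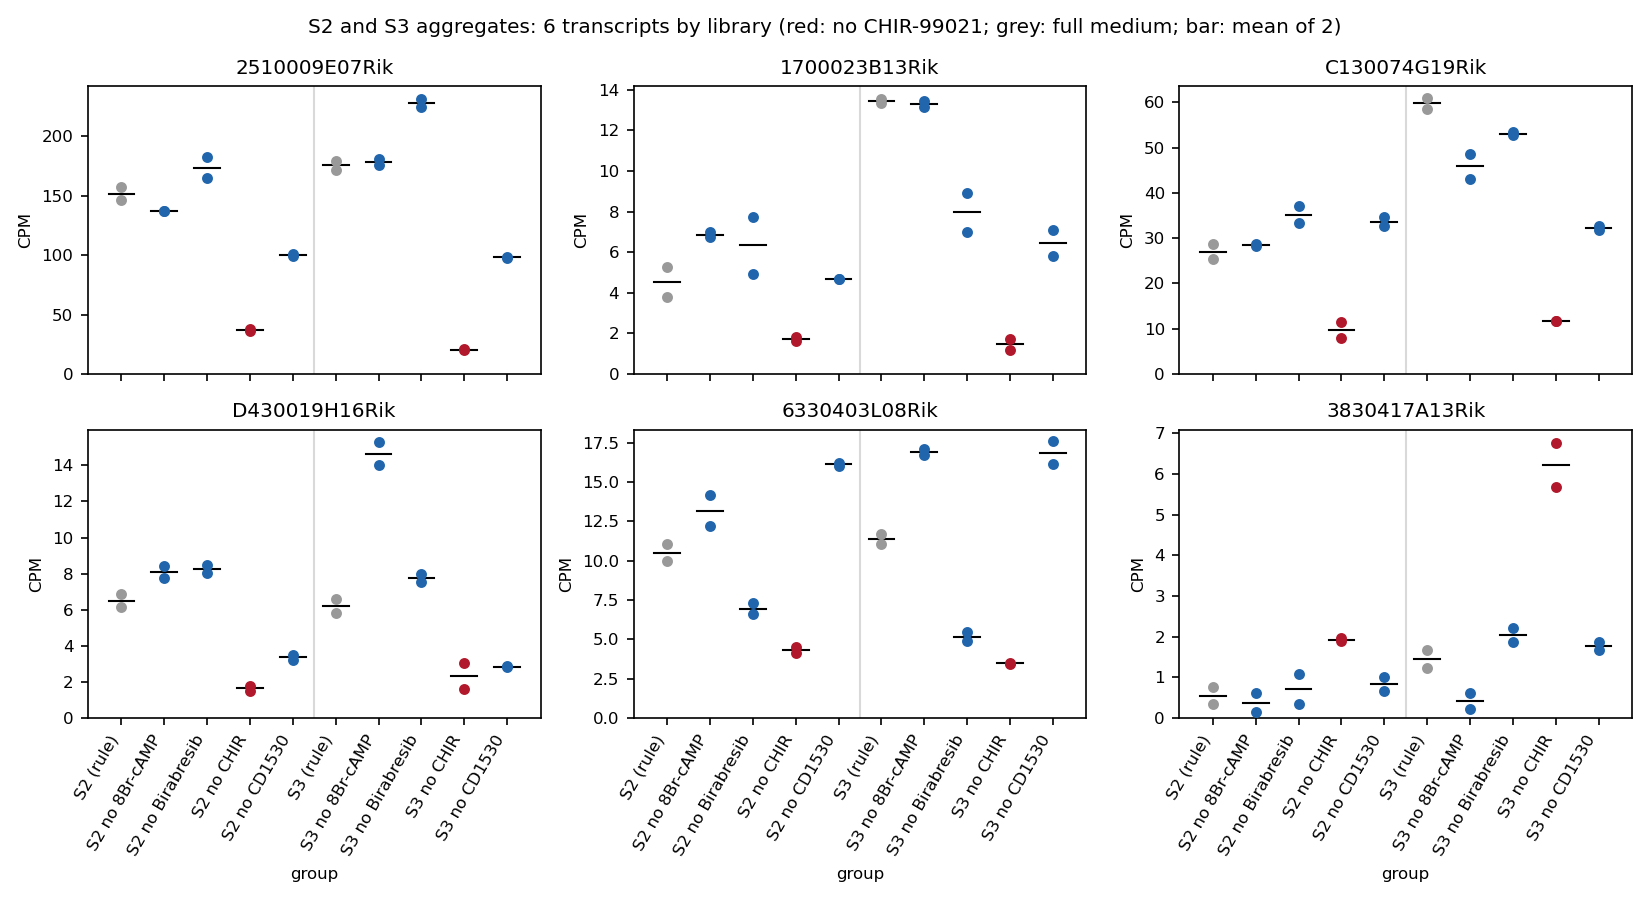
CPM on a linear axis in the S2 and S3 aggregates, 1 point per library, for 2510009E07Rik, 1700023B13Rik, C130074G19Rik, D430019H16Rik, 6330403L08Rik and 3830417A13Rik, with the libraries without CHIR-99021 in red and the full medium in grey. Among the omission libraries of a stage the red points are the lowest for 2510009E07Rik, 1700023B13Rik and C130074G19Rik and the highest for 3830417A13Rik.

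Leaving out 8Br-cAMP raised 1 member and lowered 2 at S2, against 0.922% and 2.10% of all genes, with medians of 0.06 and -0.00, and raised 7 and lowered 5 at S3, against 2.82% and 4.45%, with medians of 0.12 and 0.01. D430019H16Rik rose at both stages, to 8.41 and 7.75 CPM at S2 (1.16 ± 0.19, adjusted p = 2.2e-05) and 15.3 and 14 CPM at S3 (1.98 ± 0.18, adjusted p = 2.2e-11). 1700023B13Rik rose at S3 to 13.2 and 13.5 CPM (1.65 ± 0.20, adjusted p = 6.6e-08). Full-medium S3 had 13.3 and 13.6 CPM, so this rise is one against the other omissions only. 2410137M14Rik fell at S3 to 1.42 and 1.21 CPM (-2.29 ± 0.21, adjusted p = 5.2e-11), 3830417A13Rik to 0.6 and 0.23 CPM (-2.68 ± 0.43, adjusted p = 8.7e-06) and 2610528J11Rik by 1.52 ± 0.38 (adjusted p = 0.00212). At S2 2610528J11Rik fell by 1.29 ± 0.34 (adjusted p = 0.00929), a call lost without library 1 of that group at 1.04 lower. A730049H05Rik fell at S2 by 1.15 ± 0.36 (adjusted p = 0.0393), a call lost with the replicate number as a block at -1.14, in the fit on these groups alone, without library 1 of that group at -0.72, and without library 1 of S2 minus CHIR-99021, Birabresib or CD1530, at -1.12, -1.06 and -1.05.

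E330020D12Rik had 11 and 13.1 CPM at S3 without 8Br-cAMP, 64.6 and 61.3 CPM without Birabresib, 12.4 and 13 CPM without CHIR-99021 and 18.9 and 21.8 CPM without CD1530. The libraries without Birabresib thus stood above the other 6 and near full-medium S3, which had 59.2 and 59.5 CPM. Against the other omissions it fell without 8Br-cAMP by 1.08 ± 0.14 (adjusted p = 2.3e-07) and rose without Birabresib by 1.98 ± 0.12 (adjusted p = 1.4e-15). At S2 it had 15.3 and 13.5, 35.8 and 40.3, 10.2 and 12.9, and 23 and 20.1 CPM in the same order and rose without Birabresib by 1.17 ± 0.13 (adjusted p = 4.6e-09). Full-medium S2, at 32.1 and 26.4 CPM, lay between the libraries without Birabresib and the rest.

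Leaving out Birabresib raised 6 members and lowered 1 at S2, against 7.83% and 0.523% of all genes, with medians of 0.01 and 0.08. At S3 it raised 10 and lowered 4, against 10.7% and 0.870%, with the same medians, so the share of members that rose was below that of all genes at both stages. 5830418P13Rik had 14.9 and 14.2 CPM at S2 and 11 and 10.9 CPM at S3, above all other S2 and S3 libraries (2.01 ± 0.20, adjusted p = 3.9e-09, and 2.15 ± 0.20, adjusted p = 4.4e-10). C130073F10Rik reached 8.03 and 8.44 CPM at S3 (3.50 ± 0.24, adjusted p = 3.3e-14) and 4.43 and 2.23 CPM at S2 (1.40 ± 0.26, adjusted p = 7.3e-05, and 0.87 without library 1 of that group, no longer called). B020031M17Rik reached 6.03 and 7.02 CPM at S3 (2.84 ± 0.22, adjusted p = 1.1e-12). The 3 largest falls at S3 were those of 2610318N02Rik (-1.24 ± 0.12, adjusted p = 1.2e-10), 2610035F20Rik (-1.08 ± 0.20, adjusted p = 4.1e-05) and 6330403L08Rik (-1.07 ± 0.20, adjusted p = 4.7e-05). 2610035F20Rik also fell at S2 (-1.06 ± 0.20, adjusted p = 0.000113), and without library 2 of the Birabresib omission its changes were -0.97 at S2 and -0.76 at S3 and no longer called.

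Leaving out CD1530 raised 1 member and lowered 2 at S2, against 0.954% and 3.54% of all genes, with medians of 0.07 and -0.00, and raised 3 and lowered 7 at S3, against 1.54% and 5.76%, with medians of 0.04 and -0.01. B020031M17Rik had 0.11 and 0.414 CPM at S3 (-3.00 ± 0.34, adjusted p = 1.6e-08), C130073F10Rik 0.307 and 0.311 CPM (-2.58 ± 0.36, adjusted p = 6.5e-07) and 5830418P13Rik 1.67 and 1.16 CPM (-1.57 ± 0.25, adjusted p = 1.6e-05). 4933427D06Rik fell at S3 to 0.0877 and 0.138 CPM (-2.94 ± 0.54, adjusted p = 8e-05). At S2 5830418P13Rik fell to 2.24 and 1.65 CPM (-1.62 ± 0.25, adjusted p = 1.4e-05) and B020031M17Rik by 1.09 ± 0.24 (adjusted p = 0.0013; -0.74 without library 2 of that group, no longer called).

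6330403L08Rik, an antisense transcript of the growth factor gene Pdgfa with 14.7% of its exonic bases in that gene's exons, tracked several agents. At S3 it had 16.1 and 17.6 CPM without CD1530, 17.1 and 16.7 CPM without 8Br-cAMP, 5.45 and 4.91 CPM without Birabresib and 3.48 and 3.45 CPM without CHIR-99021, around 11.7 and 11.1 CPM in the full medium. It rose in the first pair of groups, by 1.43 ± 0.17 (adjusted p = 4.1e-08) and 1.33 ± 0.17 (adjusted p = 1.3e-07), and fell without CHIR-99021 by 1.68 ± 0.21 (adjusted p = 4.6e-08). At S2 it had 16.2 and 16.1 CPM without CD1530 (1.23 ± 0.17, adjusted p = 1.5e-06) and 4.54 and 4.15 CPM without CHIR-99021. 2410137M14Rik and D930048N14Rik rose at S3 without CD1530 by 1.12 ± 0.16 (adjusted p = 1.8e-06) and 1.08 ± 0.18 (adjusted p = 1.8e-05). Those rises were 0.98 without library 1 of that group and 0.99 without library 1 of S3 minus CHIR-99021.

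At S5 the omissions moved few members. Leaving out Activin A raised 2 and lowered 2, against 0.942% and 0.295% of all genes, with medians of -0.03 and -0.00. A730049H05Rik had 1.48 and 0.984 CPM, against 8.99 and 8.48 CPM without BMP4, 3.64 and 5.13 CPM without FGF4 and 6.24 and 5.38 CPM without XAV 939 (-2.27 ± 0.35, adjusted p = 2.6e-05). Adamts9 on the opposite strand did not change with it, at 0.01 ± 0.13 (adjusted p = 1). 2210409E12Rik rose to 1.44 and 1.44 CPM (1.33 ± 0.22, adjusted p = 7.1e-05), 6430548M08Rik rose by 1.13 ± 0.22 (adjusted p = 0.000724), and 2410137M14Rik fell to 0.306 and 0.227 CPM (-1.48 ± 0.30, adjusted p = 0.00083; -1.29 and not called without library 2 of that group). For 2210409E12Rik the groups it was set against ran from 0.0757 CPM without FGF4 to 2.28 CPM without XAV 939. The low level without FGF4 enters their mean, so this rise is one against that mean only.

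Leaving out BMP4 raised 1 member and lowered 0, against 0.164% and 0.108% of all genes, with medians of -0.03 and 0 (edgeR; 8 higher and 8 lower at an unadjusted p below 0.05, 1 and 0 by DESeq2). The 1 was A730049H05Rik (1.48 ± 0.27, adjusted p = 0.00181), a call lost without library 1 of that group at 1.42. It had 8.99 and 8.48 CPM without BMP4, below the 10.8 and 12.8 CPM of full-medium S5. The rise is thus one against the other omissions only.

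Leaving out FGF4 raised 2 members and lowered 5, against 1.27% and 1.52% of all genes, with medians of 0.02 and 0.02. 2610035F20Rik (chr14:122470284-122475199), a noncoding transcript whose start lies 236 bases from that of the transcription factor gene Zic2, had 41 and 34.1 CPM, against 16 and 15.5 CPM without Activin A, 20.9 and 19.1 CPM without BMP4 and 11.8 and 15.1 CPM without XAV 939 (1.16 ± 0.17, adjusted p = 2.3e-06). Zic2 was 0.71 ± 0.098 higher (adjusted p = 1.4e-06), under the 2-fold limit. D430019H16Rik rose to 16.8 and 17.6 CPM (1.14 ± 0.17, adjusted p = 6.7e-06). 2210409E12Rik fell to 0.159 and 0.0757 CPM (-3.57 ± 0.31, adjusted p = 5.5e-10), 3830417A13Rik to 1.41 and 1.14 CPM (-2.29 ± 0.36, adjusted p = 1.5e-05) and 1110002J07Rik to 1.73 and 2.69 CPM (-1.37 ± 0.19, adjusted p = 1.7e-06). The 7 extraembryonic endoderm markers summed to 402 to 443 CPM without FGF4, against 1158 to 1475 CPM in full-medium S5, and the part of these cells was not tested.

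Leaving out XAV 939 raised 6 members and lowered 0, against 1.14% and 0.403% of all genes, with medians of 0.02 and 0.00 (edgeR; 31 higher and 20 lower at an unadjusted p below 0.05, 5 and 0 by DESeq2). 2410137M14Rik rose to 1.39 and 2.5 CPM (2.28 ± 0.21, adjusted p = 1.1e-09), 2210409E12Rik to 2.28 and 1.36 CPM (1.79 ± 0.21, adjusted p = 4.2e-07) and 2410003I16Rik to 2.19 and 1.79 CPM (1.58 ± 0.20, adjusted p = 5.9e-07). For 2210409E12Rik the groups it was set against include the one without FGF4, which held the lowest value, 0.0757 CPM, and lowers their mean. 1110002J07Rik reached 9.04 and 9.98 CPM (1.48 ± 0.16, adjusted p = 2e-08) and B020031M17Rik 15.1 and 15.3 CPM, above the 5.38 and 4.01 CPM of the full medium (1.40 ± 0.19, adjusted p = 2.9e-06). These libraries differed more than most, and without library 2 of the group 16 members were called.

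A named neighbour within 10 kilobases was annotated for 106 members, and 97 pairs were tested, 32 of them with divergent starts within 1 kilobase. From the S3 to the S5 omission groups 25 of the members in these pairs were called. The neighbour was called in the same direction in 2 of 6 divergent pairs and in 5 of 19 other pairs. The divergent ones were 2610035F20Rik with Zic2, up by 1.24 ± 0.11 (adjusted p = 3.7e-12) and 1.37 ± 0.064 (adjusted p = 2.3e-20), and B230354K17Rik with Cdc5l, down. The 5 others were A730049H05Rik with Adamts9 and 2610037D02Rik with Arid2, both up, and 6330403L08Rik with Pdgfa, 2410137M14Rik with H2-M5 and 2210409E12Rik with Coil, all down. 2900052L18Rik and Bahcc1 moved in opposite directions. For the other 17 members the neighbour was not called. Over all pairs, called members or not, 3 of 32 divergent and 15 of 65 other neighbours were called, beside 17.7% of all genes that rose and 6.99% that fell, so the count of matched pairs is no result about the members. At passage 25 the neighbour was called in the same direction for 1 of 5 called members in divergent pairs and for 3 of 21 in other pairs, and was not called for the rest. Those pairs were B930095G15Rik with Farp1 and A930004D18Rik with Skida1, both up, and a pair of falls. D930048N14Rik fell together with N4bp3 (-2.01 ± 0.17, adjusted p = 1.9e-12), and 6330403L08Rik (-1.55 ± 0.24, adjusted p = 1.6e-06) together with Pdgfa (-1.68 ± 0.11, adjusted p = 1.4e-15).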

How the data were processed

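Polyadenylated RNA was sequenced in 52 libraries of 26 groups as paired reads of 100 bases. The authors deposited raw counts per gene symbol. Trimmomatic 0.39, STAR 2.7.10b, featureCounts 2.0.6 and the build mm10 are named in the submitters' processing notes. The annotation, strand setting and read pair rule were not given in the sources used here. No column of another series was used, and every column was joined to 1 sample by its name.

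Members were ranked on CPM over column totals. For tests, genes were kept with filterByExpr (25056), scaled with TMM factors (0.923 to 1.16), and fitted with 1 mean per group over all 52 libraries in a quasi-likelihood model (edgeR 4.0.16, limma 3.58.1, R 4.3.3). SE is the log2 fold change over the square root of F. The 4 EPSC libraries were fitted as 2 groups. Libraries held from 16.6 to 108 M counts, and with 2 libraries per group the spread is shared over groups. A group without counts was set to 3 counts per library. These floors cover counting error only. The test was tried on simulated data for the S5 against S3 omission contrast over 24842 genes. Of the changed genes, 100 of 100 at 2-fold and 100 of 100 at 4-fold had an adjusted p below 0.05 in the right direction, with 9 false ones. The 2-fold limit was not applied there, and the 2-fold genes had a median log2 change of 1.01. Every gene had the same spread, no changed gene was of low level, and comparisons of 2 libraries against 2 were not simulated.

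Members and lists were chosen with earlier results of these data known. The members named were, in order, the 6 largest ratios per peak stage, up to 3 called members with the largest change each way per comparison, members with an established name or a marker gene as neighbour, and the 2 ranks on each side of the last member; other names are said to be chosen after their values were seen or come from the neighbour list. Symbols were matched to GENCODE M21 and to RefSeq (143 members). Alternatives were RLE size factors, no filter, DESeq2 1.42.0, the groups of a comparison alone, the replicate number as a block, and leaving out each library.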

Additional observations from a re-analysis of the deposited data

Results flagged for a closer look

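The response to the totipotency medium differed between the EPSC and mESC lines in a test of the difference itself (edgeR, adjusted over all genes) for 9 of the 24 members named for their stage ratio, 7 lower and 2 higher in mESCs. Over all tested genes 9.97% were lower and 8.70% higher, and over the 21300 genes with values in both sets 11.7% and 10.2%. The response in mESCs was lower by 4.78 on the log2 scale for C130073F10Rik (-4.78, with 5.35 in EPSCs and 0.57 in mESCs, adjusted p = 1.1e-10). It was -3.45 lower for 3830417A13Rik (7.14 and 3.69, adjusted p = 0.00242), which was -2.73 and no longer called without mESC library 1. The difference was -2.71 for C130074G19Rik (0.38 and -2.33, adjusted p = 3.5e-09) and -2.71 for 2810410L24Rik (0.56 and -2.15, adjusted p = 1.1e-06). It was -2.50 for 2510009E07Rik (4.84 and 2.34, adjusted p = 6.3e-14), which rose in both lines. It was -1.26 for 1110002J07Rik (3.09 and 1.83, adjusted p = 0.000928), a call lost without EPSC library 2 at -0.87 and without mESC library 1 at -0.96. For C530008M17Rik (Cracd) it was -1.01 (0.81 and -0.20, adjusted p = 0.00153), a call lost without any of 4 libraries, at -0.83 to -0.96. The response was higher in mESCs for 2610037D02Rik, by 2.92 (-1.88 and 1.04, adjusted p = 1.2e-10), and for 4930461G14Rik, by 1.30 (-1.87 and -0.57, adjusted p = 0.00102). Each line was measured in its own set of libraries, and line, starting medium and set cannot be told apart.

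The effect of leaving out CHIR-99021 differed between S3 and S2 for 4 of the 150 members in the same kind of test, 2 higher and 2 lower, against 0.686% and 0.774% of all genes. For 2510009E07Rik the change at S3 minus that at S2 was -1.13 (adjusted p = 1.3e-06). For 4930556M19Rik it was -1.30 (-1.88 at S3 and -0.58 at S2, adjusted p = 0.00161). For 2410137M14Rik it was 1.13 (0.42 and -0.72, adjusted p = 0.00611), with 5.45 and 5.17 CPM at S3 and 2.32 and 2.81 CPM at S2 without CHIR-99021, and 1.00 and just under the 2-fold limit without S2 minus CHIR-99021 library 1. For 4933427D06Rik it was 2.12 (1.83 and -0.29, adjusted p = 0.042), a call lost without any of 10 libraries, with values from 1.75 to 2.33. Its level without CHIR-99021 was 0.47 and 0.355 CPM at S2.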

How the results depend on the processing

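RLE size factors, no filter on low counts and DESeq2 left every count of called members within 1.5 times, and all 119 calls of named members stood under each of the 3. When the groups of a comparison were fitted alone, the PD0325901 comparison called 1 member in place of 10, and 8 of the 119 named calls were lost. Leaving out 1 library at a time, with the spread taken from all libraries and the lone library assumed to vary like the rest, gave 0 to 11 called members for Elvitegravir (11 without CHIR-99021 library 1), 1 to 2 between the S2 and S3 omission groups (1 without S2 minus Birabresib library 2), 6 to 11 for Birabresib left out at S2 (11 without library 2), 8 to 14 for CHIR-99021 left out at S2 (14 without library 1), 0 to 2 for BMP4 left out at S5 (0 without its library 1, 2 without library 1 of the FGF4 or the Activin A omission), and 5 to 16 for XAV 939 left out at S5 (16 without library 2). For the added difference of the CHIR-99021 omission between stages the range was 2 to 4 (2 without S2 minus CHIR-99021 library 1). In the remaining comparisons the ranges were within 1.5 times of the count. The cause was not tested.

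With the replicate number as a block, every count of called members stayed within 1.5 times and 1 of 107 named calls was lost, that of A730049H05Rik without 8Br-cAMP at S2 (-1.14). No paired fit was made for mESCs or passage 25 against EPSC libraries 3 and 4, which share no number. Deviations of same-numbered libraries correlated with a median of -0.0013 over 300 pairs of groups (-0.114 to 0.432), so over most groups the numbers show no pairing. The highest value, 0.432, was that of CHIR-99021 alone with CHIR-99021 plus PD0325901, which are compared above. The block took 1 shift for all groups, so it cannot take up a deviation that only these groups share, and such pairing was not tested. Members chosen on CPM of TMM library sizes would have kept 144 of the 150, and 107 of 150 would then have kept their peak stage in the unused libraries; without replicate 1 or 2 of the unused groups it was 99 and 109. With 2 libraries per group, changes of members under about 1 CPM rest on few reads.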
